A study of Mus musculus with 50 samples.

Results

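Krt7, Krt8, Krt18 and Krt19, the keratins of simple epithelia, are 4 of the 1000 gene targets of the CosMx Spatial Molecular Imager panel that was read on these liver sections. They were taken by name, and each was set against the pan-cytokeratin (PanCK) antibody stain of the same cells, across biliary and hepatocyte-sized cells and across genotype. Keratins are intermediate filament proteins that assemble as pairs of a type I and a type II chain. Krt8 (type II) and Krt18 (type I) form the filaments of simple epithelia and are the keratins of the hepatocyte. Krt7 (type II) and Krt19 (type I) are added in the epithelium of the bile ducts, and Krt19 is a customary biliary marker in liver histology.

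The sections came from mouse livers in which the histone chaperone HIRA had been deleted in hepatocytes. HIRA KO mice carried HIRA fl/fl alleles and received AAV8-TBG-Cre, a virus that expresses Cre from the hepatocyte promoter TBG, while Control mice were wild-type and received the same virus. Injection was at 6 months of age and tissue was taken 12 months later, at 18 months. Both groups therefore carried the virus and Cre, and the floxed alleles were not present in the controls. The methods state 3 mice per group, and the 50 fields of view fell into 3 separate tissue areas per genotype with 8 to 9 fields in each. The labels name no mouse, so an area is the replicate here (n = 3 Control and 3 HIRA KO areas) and a p-value measures the spread between these areas. The slide carried the Control areas on one side and the HIRA KO areas on the other, so genotype and slide position cannot be told apart. Hira is not a target named in the panel, and its deletion could not be checked in these counts.

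After removal of 2215 cells with fewer than 20 counts and 252 oversized cells, 49665 of 52132 segmented cells were kept, with 718991 to 1542205 gene counts per area and a median of 88 to 147 counts per cell. Cells were clustered without the 4 keratins, so that keratin counts did not choose the classes. One of 20 clusters held 2730 cells and was led by Spp1 (osteopontin), Clu (clusterin), Sox9 (a biliary transcription factor), Anxa4 (an annexin), Cdh1 (E-cadherin) and Epcam (an epithelial adhesion molecule), and these cells are called cholangiocyte-like. They made up 1.94% to 8.10% of the cells of an area. Hepatocyte-sized cells are the 25012 other cells whose area reached the geometric mean of 10967 square pixels. Of these, 11401 lay in clusters led by hepatocyte markers and 7276 in clusters left unnamed. The rest lay in clusters named for other cell types, so this class is one of size and not of identity.

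The genes lie on 2 mouse chromosomes. In the GENCODE vM21 annotation of GRCm38, the type II gene Krt7 is at chr15:101411043-101430313 (plus strand), Krt8 at chr15:101996698-102004482 (minus strand) and Krt18 at chr15:102028180-102032027 (plus strand). Krt18 lies 23698 bases from its partner Krt8. The other type I gene of the set, Krt19, is at chr11:100140810-100148665 (minus strand). The deposited tables carry no coordinates or probe sequences for these targets.

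Counts of the keratins were read against the 10 negative probes of the panel, which match no mouse transcript. Over all kept cells Krt8 had 9199 counts, 3.17 times the mean negative probe. Krt18 had 5576 counts (1.92 times) and Krt19 had 4077 counts (1.40 times). Krt7 had 2857 counts, 0.984 times the mean negative probe, and lay above only 4 of the 10. Thus 3 of the 4 keratins exceeded the highest negative probe (3828 counts) and Krt7 over all cells did not, as was the case for 243 of the 1000 targets. Of the 14 other keratin targets on the panel, 6 exceeded it.

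In cholangiocyte-like cells all 4 keratins stood above the negative probes. Krt8 was 10.1 times the mean negative probe there, Krt18 7.15 times, Krt19 4.07 times and Krt7 2.71 times. In hepatocyte-sized cells the same ratios were 2.84 for Krt8, 1.71 for Krt18, 1.27 for Krt19 and 0.874 for Krt7. The Krt7 count of hepatocyte-sized cells was therefore not separable from the probe background. Krt19, with 2843 counts in these cells, was above the mean negative probe but also below the highest one (2983 counts). Cholangiocyte-like cells were 5.50% of the cells and held 9.73% of the Krt7 counts, 11.3% of Krt8, 13.2% of Krt18 and 10.3% of Krt19, whereas hepatocyte-sized cells held 68.7% to 69.7% of each. Of all gene transcripts, hepatocyte-sized cells, 50.4% of the cells, held 69.9%, and of the negative probe counts 77.3%, so their keratin shares were close to their share of all targets. Cholangiocyte-like cells held 4.81% of all gene transcripts.

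All 4 keratins were higher in cholangiocyte-like than in hepatocyte-sized cells in 6 of 6 areas. Values here are counts per 1000000 gene counts (CPM) of a class in an area. Krt19 in cholangiocyte-like cells was 1201.3, 1484 and 2215 CPM in the Control areas and 1142, 1200.6 and 932 CPM in the HIRA KO areas. In hepatocyte-sized cells Krt19 was 639, 607 and 653 CPM in the Control areas and 640, 592 and 484 CPM in the HIRA KO areas. Every cholangiocyte-like area was above every hepatocyte-sized area, and the ratio within an area was 2.24 ± 0.61 (SD, n = 6). The hepatocyte-sized count of Krt19 lay below the highest negative probe of that class.

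Krt18 in cholangiocyte-like cells was 2577, 1198 and 2909 CPM in the Control areas and 2418, 1969 and 1798 CPM in the HIRA KO areas. In hepatocyte-sized cells it was 926, 640 and 742 CPM in the Control areas and 1028, 912 and 587 CPM in the HIRA KO areas. The classes again did not overlap, with a within-area ratio of 2.69 ± 0.74 (SD, n = 6). Control area 2, which held the fewest cholangiocyte-like cells (132), was the lowest for Krt18 in that class.

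Krt8, the type II partner, was 2559, 1883 and 5488 CPM in the cholangiocyte-like cells of the Control areas and 3106, 2939 and 3596 CPM in those of the HIRA KO areas. In hepatocyte-sized cells it was 1277, 1507 and 1359 CPM in the Control areas and 1261, 1432 and 1133 CPM in the HIRA KO areas. The ratio was 2.50 ± 0.98 (SD, n = 6) and ran from 1.25 in the lowest area to 4.04 in Control area 3, which stood apart from the other 5 areas.

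Krt7, the type II keratin of bile ducts, was 818, 856 and 893 CPM in the cholangiocyte-like cells of the Control areas and 721, 989 and 699 CPM in those of the HIRA KO areas. In hepatocyte-sized cells it was 446, 481 and 398 CPM in the Control areas and 492, 398 and 276 CPM in the HIRA KO areas. The ratio was 2.06 ± 0.43 (SD, n = 6), over hepatocyte-sized values at the level of the negative probes.

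These ratios were given no test, because the classes came from clustering the same cells. Over all 998 targets tested, 125 (12.5%) were higher in cholangiocyte-like cells in every area, and 71 (7.11%) had every cholangiocyte-like area above every hepatocyte-sized area. The 4 keratins were among both. By the ratio of class means they ranked 11 (Krt18), 12 (Krt8), 16 (Krt19) and 21 (Krt7) of 998, where the median target had a ratio of 0.901. Genes that led the cluster had larger ratios, such as Spp1 (32.1 ± 8.89, SD, n = 6) and Clu (16.9 ± 3.63), or similar ones, such as Sox9 (3.88 ± 0.66), Anxa4 (3.16 ± 0.77), Cdh1 (2.95 ± 0.93) and Epcam (2.41 ± 0.68).

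Among the 7 named classes that reached 100 cells in each area, the cholangiocyte-like class was highest for each keratin and the Kupffer-like class, the resident macrophages, was lowest. For Krt8 the cholangiocyte-like mean of 3262 ± 1232 CPM (SD, n = 6) was followed by 1464 ± 140 CPM in hepatocyte-like cells, with no overlap between areas. Krt7 showed the same gap, from 829 ± 109 CPM to 430 ± 65.4 CPM in hepatocyte-like cells. For Krt18 the cholangiocyte-like mean of 2145 ± 615 CPM was followed by 957 ± 251 CPM in hepatocyte-like cells, and the lowest cholangiocyte-like area (1198 CPM) lay below the highest hepatocyte-like area (1301 CPM). For Krt19 the cholangiocyte-like mean of 1363 ± 453 CPM was followed by 746 ± 350 CPM in neutrophil-like cells and 611 ± 62.9 CPM in hepatocyte-like cells, and its range also overlapped that of the neutrophil-like class. Below the cholangiocyte-like class, every neighbouring pair in these orders overlapped. The lowest class, Kupffer-like, still gave 889 ± 89.2 CPM of Krt8 and 454 ± 107 CPM of Krt19, which were 2.49 and 1.24 times its mean negative probe. The plot of keratin counts by class shows that for Krt7 only the cholangiocyte-like class lies clear of the probe background.

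**Figure D1:**
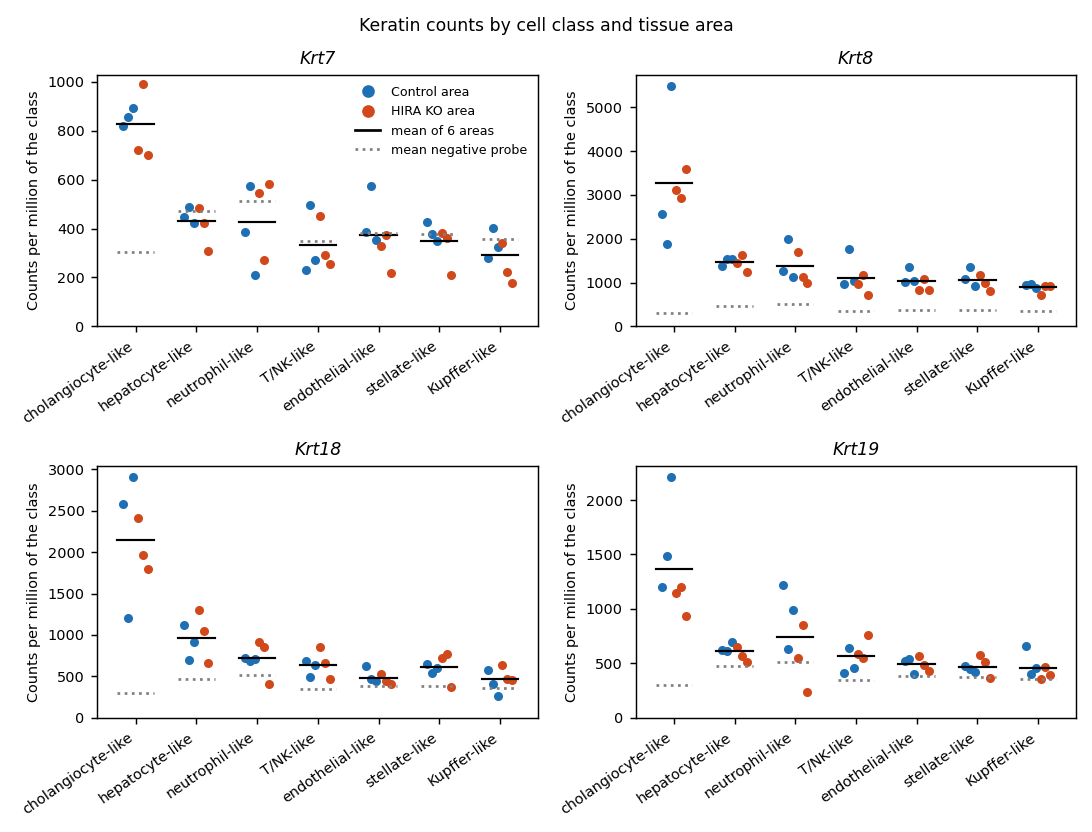
CPM of each keratin (vertical axis, 1 panel per keratin, each with its own scale from 0) in 7 cell classes (horizontal axis); points are tissue areas, blue for Control and red for HIRA KO, the solid bar is the mean of 6 areas and the dotted bar the mean negative probe of that class. The cholangiocyte-like class has the highest mean for each keratin, for example 3262 CPM against 1464 CPM in hepatocyte-like cells for Krt8, and the other classes of Krt7 lie at the dotted bars.

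The share of cells with at least 1 keratin count was low at this depth. With each cell thinned to 50 gene counts, 14.6% ± 4.49 (SD, n = 6) of cholangiocyte-like cells had a Krt8 count, 9.23% ± 3.10 a Krt18 count, 5.87% ± 3.04 a Krt19 count and 4.05% ± 0.86 a Krt7 count. In hepatocyte-sized cells at the same depth the shares were 6.30% ± 0.54 for Krt8, 3.67% ± 0.76 for Krt18, 2.94% ± 0.40 for Krt19 and 1.98% ± 0.42 for Krt7. Kupffer-like cells, which should lack epithelial keratins, gave 4.01% ± 0.94, 2.44% ± 0.82, 2.33% ± 0.66 and 1.16% ± 0.45 in the same order. The hepatocyte-sized share of Krt19 was thus close to the Kupffer-like background. A count of at least 1 of the 4 was found in 29.2% ± 6.14 of cholangiocyte-like cells. Without thinning the cholangiocyte-like shares were 8.52% for Krt7, 27.4% for Krt8, 19.3% for Krt18 and 13.6% for Krt19. Thinning left out 440 of the 2730 cholangiocyte-like cells.

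Over 53 sums of class and area (9 classes with at least 20 cells in the sum), Krt8 and Krt18 followed each other most closely, with Pearson r = 0.85 of log2(CPM + 100). This pair was also the top match of each gene among all targets above the negative probes. After Krt18, the closest targets to Krt8 were Anxa4 (r = 0.81), Cdh1 (0.79), Spp1 (0.79) and Clu (0.68). For Krt18 they were Anxa4 (0.76), Hmgcs1 (0.70), Cdh1 (0.69) and Spp1 (0.68). The targets close to Krt19 included Crp (0.77), Cdh1 (0.73), Sox4 (0.71) and Myh6 (0.69), and its r with its pair partner Krt7 was 0.51. Krt7 was closest to Col27a1 (0.76), Mapk13 (0.71), Lif (0.70), Top2a (0.70) and Cystm1 (0.68). The sums share libraries and depth, and these r values are a description.

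The second question was whether keratin transcripts followed the PanCK stain, which binds several keratin proteins. Stain was ranked within each area, and counts of the brightest 25% of a population were set against those of its other cells with the area as a block (edgeR quasi-likelihood test, Benjamini-Hochberg adjustment over all targets tested). Krt19 and Krt18 were higher in PanCK-bright cholangiocyte-like cells, and no keratin was called in hepatocyte-sized cells. The difference between these populations was not tested.

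In cholangiocyte-like cells 11 of 827 targets were called (1.33%), 5 of them higher in the bright cells (0.605%), and 2 of these 5 were Krt19 and Krt18. Krt19 in bright against other cells was 2253 against 826 CPM in Control area 1, 3654 against 761 CPM in Control area 2 and 3676 against 1544 CPM in Control area 3. In the HIRA KO areas it was 1829 against 900 CPM, 1370 against 1141 CPM and 624 against 1016 CPM. The bright cells were higher in 5 of 6 areas, and HIRA KO area 3, with 4 Krt19 counts in its bright cells, was the exception. The log2 difference was 0.96 (SE 0.18, edgeR adjusted p = 0.00035), the largest rise of the 827 targets. The brightest 25.1% of cholangiocyte-like cells held 40.4% of their Krt19 counts.

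Krt18 in bright against other cholangiocyte-like cells was 3181 against 2361 CPM, 1827 against 989 CPM and 5462 against 1737 CPM in the Control areas. In the HIRA KO areas it was 2893 against 2250 CPM, 2184 against 1894 CPM and 2028 against 1735 CPM. Bright cells were higher in 6 of 6 areas, with the widest gap in Control area 3. The log2 difference was 0.58 (SE 0.16, edgeR adjusted p = 0.0280). The Krt18 call rested on several areas, since the adjusted p was 0.0588 without Control area 2, 0.406 without Control area 3 (log2 difference 0.37) and 0.0604 without HIRA KO area 3. It was also lost with DESeq2 (adjusted p = 0.0894) and when cells were ranked by their maximum instead of their mean stain (log2 difference 0.34, edgeR adjusted p = 0.489).

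The type II partners gave smaller values that did not pass. Krt8 was 0.40 on the log2 scale (SE 0.14, edgeR adjusted p = 0.152) and Krt7 was 0.37 (SE 0.21, adjusted p = 0.631). Under alternative settings Krt8 passed in 2 of 17 and Krt7 in 0 of 15. The median of the 4 keratins was 0.49, against 0.00 over all targets. With the brighter 50% in place of 25%, neither Krt19 (0.62) nor Krt18 (0.47) was called (edgeR adjusted p = 0.592 for both).

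A companion list of epithelial genes, which also holds the filament genes Vim and Des of mesenchymal and muscle cells, had 15 genes on the panel. Of these 15 listed genes, 14 were tested in this contrast and 1 was called, Ezr (ezrin, a linker of membrane and actin). Its log2 difference was 0.62 (SE 0.16, edgeR adjusted p = 0.0280). The next were Spp1 (0.38, adjusted p = 0.0678) and Itga3, an integrin chain (0.61, adjusted p = 0.138). The other targets called higher were Ccl20, a chemokine (0.83, adjusted p = 0.0316), and Gas6, a ligand of TAM receptor kinases (0.52, adjusted p = 0.0280). None of the 8 other keratin targets that were tested was called.

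**Figure D2:**
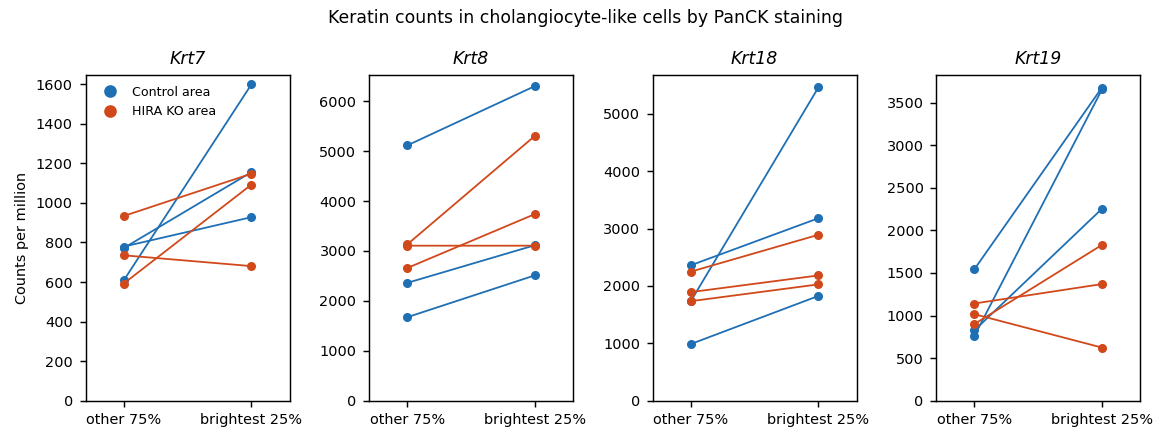
CPM of each keratin (vertical axis, own scale from 0 in each panel) in the other 75% and the brightest 25% of cholangiocyte-like cells by mean PanCK stain; each line joins the values of 1 tissue area, blue for Control and red for HIRA KO. Krt18 rises in all 6 areas and Krt19 in 5 of 6, and the Krt19 line that falls, from 1016 to 624 CPM, is HIRA KO area 3.

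In hepatocyte-sized cells 10 of 998 targets were called by PanCK brightness (1.0%), none of them a keratin and none of the 4 keratins at an unadjusted p under 0.05. The log2 differences were 0.09 for Krt7 (SE 0.09), -0.05 for Krt8 (SE 0.06), 0.02 for Krt18 (SE 0.06) and -0.00 for Krt19 (SE 0.08), with edgeR adjusted p of 0.773, 0.819, 0.931 and 0.995. The largest rises were of Gpnmb, a glycoprotein of lysosome-rich macrophages (0.56), Cd5l, a protein secreted by Kupffer cells (0.38), Hba-a1/2, the alpha globins (0.35), Ctsd, cathepsin D (0.34) and Hbb, a beta globin (0.33). None of the 15 listed genes was called.

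Over all kept cells 47 of 998 targets were called (4.71%), 14 of them higher in the brightest 25% (1.40%) and Krt18 among these (log2 difference 0.28, SE 0.06, edgeR adjusted p = 0.00419). Krt8 was 0.18 (SE 0.06, adjusted p = 0.0807), Krt7 0.19 (SE 0.07, adjusted p = 0.126) and Krt19 0.22 (SE 0.09, adjusted p = 0.158; 0.10 without Control area 3). Of the 15 listed genes 3 were higher, with Spp1 (0.83, edgeR adjusted p = 4.21e-07) and Clu (0.44, edgeR adjusted p = 0.0147) among them. The 1 listed gene called lower was Vim (vimentin, the filament of mesenchymal cells), at -0.31 (edgeR adjusted p = 0.00099). All-cell values mix classes, and the share of cholangiocyte-like cells among the bright cells moves with them.

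A finer division of the ranks, by the stain of all cells of an area, gave the highest mean of Krt19, Krt18 and Krt8 of cholangiocyte-like cells in the top step. In cholangiocyte-like cells Krt19 averaged 1051, 848 and 992 CPM from percentile 0 to 25, 25 to 50 and 50 to 75 of the PanCK ranks of an area, 1389 CPM from 75 to 90 and 1650 CPM from 90 to 99. In the brightest 1% it averaged 3684 ± 1888 CPM (SD, n = 6). Krt18 was 1298 ± 555 CPM in the lowest step, between 1935 and 2267 CPM in the 4 steps after it and 3591 ± 2135 CPM in the brightest 1%. Krt8 lay between 2809 and 3562 CPM in the steps below the brightest 1% and averaged 5167 ± 2485 CPM in it. Krt7 was 505 ± 421 CPM in the lowest step, between 605 and 1417 CPM in the 4 steps after it and 984 ± 436 CPM in the highest. The order of the steps was given no test. In hepatocyte-sized cells the Krt18 mean was 799 ± 168 CPM in the lowest step and 420 ± 238 CPM in the brightest 1%, the latter on 10 Krt18 counts in 136 cells. Krt19 of these cells was also lowest in the brightest 1% (492 ± 424 CPM, on 11 counts), while Krt8 (1683 ± 700 CPM) and Krt7 (476 ± 400 CPM) were highest there.

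**Figure D3:**
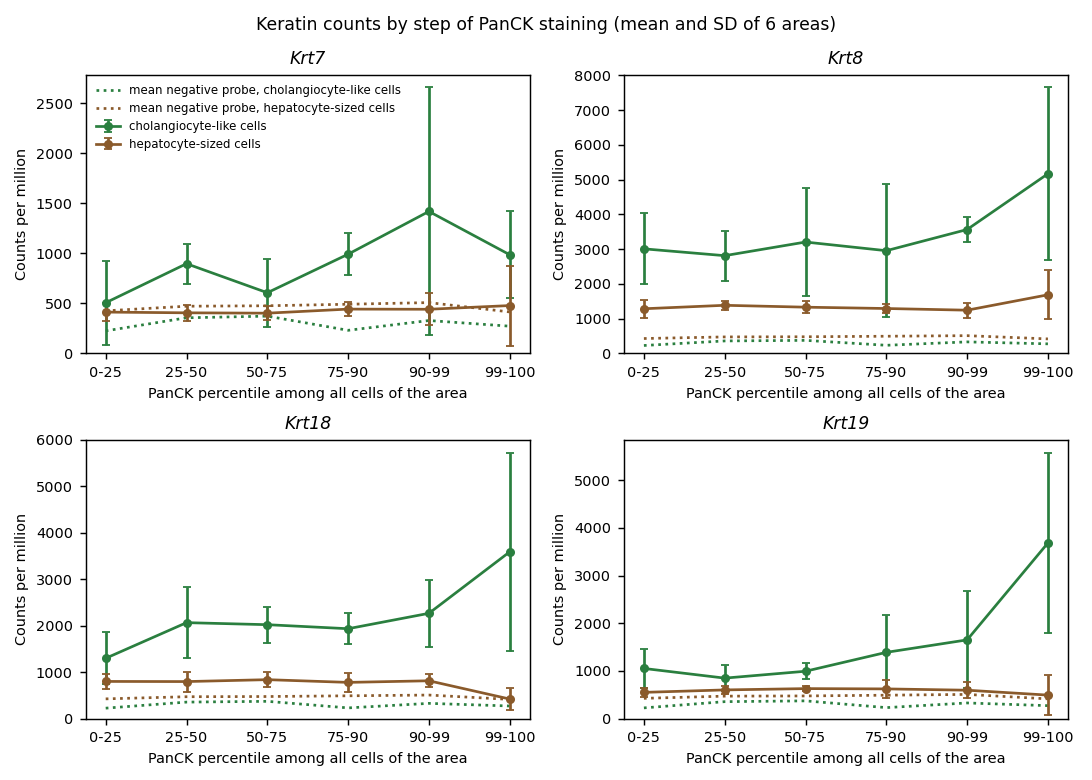
Mean CPM of each keratin (vertical axis, 1 panel per keratin, own scale from 0) by percentile step of the PanCK stain within an area (horizontal axis), for cholangiocyte-like cells (green) and hepatocyte-sized cells (brown); bars are SD over 6 areas and dotted lines the mean negative probe. Krt19 in cholangiocyte-like cells reaches 3684 CPM in the brightest 1% and lies between 848 and 1650 CPM in the other steps. In hepatocyte-sized cells Krt18 (420 CPM) and Krt19 (492 CPM) are lowest in the brightest 1%.

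A contrast of the brightest 1% of all cells of an area was added after these steps had been seen. It held 501 cells, of which 13.04% to 66.2% per area (39.1% in all) were cholangiocyte-like. Over all cells 57 of 998 targets were called (5.71%), 42 of them higher (4.21%), and 3 of the 4 keratins were among the 42. Krt19 in the brightest 1% against the other cells was 2366 against 620 CPM, 2145 against 602 CPM and 3224 against 600 CPM in the Control areas. It was 1808 against 606 CPM, 1434 against 625 CPM and 840 against 465 CPM in the HIRA KO areas. The bright cells were higher in 6 of 6 areas, with the smallest gap in HIRA KO area 3. The log2 difference was 1.78 (SE 0.20, edgeR adjusted p = 1.91e-12), behind only Spp1 (3.15) and Clu (2.15) among 998 targets. Krt18 rose by 1.54 (SE 0.21, adjusted p = 1.03e-08) and Krt8 by 1.38 (SE 0.19, adjusted p = 4.69e-09), while Krt7 was 0.74 (SE 0.30, adjusted p = 0.155). Of the 15 listed genes 8 were higher and none lower, and none of the 14 other keratins was called.

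The brightest 1% held 39.1% cholangiocyte-like cells against 5.50% among all cells, so the same contrast was run within that class (196 bright cells, 9 to 48 per area). There 19 of 320 targets were called (5.94%), 5 of them higher (1.56%). Krt19 was 3092 against 975 CPM, 6983 against 994 CPM and 4187 against 1681 CPM in the Control areas, and 3945 against 958 CPM, 2295 against 1122 CPM and 1601 against 903 CPM in the HIRA KO areas. It was higher in 6 of 6 areas and led the 320 targets, with a log2 difference of 1.48 (SE 0.23, edgeR adjusted p = 1.96e-05). Krt18 was higher by 0.77 (SE 0.21, adjusted p = 0.0150), a call that was lost without Control area 1 (adjusted p = 0.0749), without Control area 3 (0.43, adjusted p = 0.374) and with DESeq2 (adjusted p = 0.240). Krt8 was 0.51 (SE 0.17, adjusted p = 0.0645), and Krt7 did not pass the filter on low counts. S100a10, a partner of annexin A2 (0.70, adjusted p = 0.0123), Cstb, a cysteine protease inhibitor (0.65, adjusted p = 0.0474), and Gas6 (0.62, adjusted p = 0.0123) were the other targets called higher. Within the class, Spp1 was 0.24 (adjusted p = 0.543) and Clu -0.38 (adjusted p = 0.536). Both led the cluster that made the class, and Gas6 was also among its leading targets, whereas the keratins were left out of the clustering. The part of this in the values was not tested.

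Counts per cell moved with brightness in this class. Cholangiocyte-like cells in the brightest 1% of all cells of an area had medians of 122 gene counts and 5169 square pixels. In the other steps of the class the medians were 87 to 99 counts and 5863 to 6920 square pixels. CPM and the library sizes of the test scale with the total count, and the part of cell size in the result was not tested. Read by cell and pooled over areas, the 2372 cholangiocyte-like cells with no Krt19 count had a median PanCK percentile of 61.5, the 305 with 1 count 72.8, the 47 with 2 counts 83.5 and the 6 with at least 3 counts 99.4. The medians of single areas ran from 41.8 to 71.0, 56.7 to 94.0, 34.6 to 95.6 and 86.7 to 99.9 in the same order, so the ranges overlapped. These groups also differed in depth, with medians of 92, 128, 183 and 253 gene counts. In hepatocyte-sized cells the median percentile was 57.6 with no Krt19 count (54.8 to 60.7 in single areas) and 52.8 in the 27 cells with at least 3 (18.3 to 71.5). Depth moved here too, from a median of 164 to 308 gene counts between these groups, and in this class it was 199 counts per cell in the lowest step of the stain and 129.5 in the brightest 1%. The part of depth in either order was not tested.

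For hepatocyte-sized cells the stain was ranked within the class instead, so that its brightest 1% was 253 cells (36 to 48 per area), which include the 136 in the brightest 1% of all cells. In this contrast 10 of 998 targets were called (1.0%), none of them a keratin. The targets with the largest rise were Gpnmb (2.17, edgeR adjusted p = 7.04e-08), Ighm, an immunoglobulin heavy chain (1.26), Ctsd (1.22), Lgals3, galectin-3 (1.09), and Cd53, a leukocyte tetraspanin (1.09). Krt18 was -1.02 (SE 0.37, adjusted p = 0.256) and Krt19 was 0.09 (SE 0.34, adjusted p = 0.951).

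By genotype, no keratin was called in any of the 3 populations. In cholangiocyte-like cells 0 of 990 targets were called (0%) by edgeR and 0 by DESeq2, with 64 at an unadjusted p under 0.05. Krt19 was the only one of the 4 keratins whose areas, listed above, did not overlap between genotypes. Its mean was 1633 ± 523 CPM in Control and 1092 ± 141 CPM in HIRA KO areas (SD, n = 3), and the nearest areas, 1201.3 and 1200.6 CPM, were all but equal. Of 998 targets, 62 (6.21%) were lower and 47 (4.71%) higher without overlap. The log2 difference of HIRA KO to Control was -0.50 (SE 0.23, unadjusted p = 0.0293, edgeR adjusted p = 0.751). It was -0.02 for Krt7 (SE 0.24), -0.05 for Krt8 (SE 0.27) and -0.14 for Krt18 (SE 0.25), with adjusted p of 0.984, 0.970 and 0.940.

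In hepatocyte-sized cells 1 of 998 targets was called (0.10%) and none of the 4 keratins, none of them at an unadjusted p under 0.05. Krt18 had the largest difference (0.25, SE 0.16, edgeR adjusted p = 0.724), with Control areas at 926, 640 and 742 CPM inside the range of the HIRA KO areas (1028, 912 and 587 CPM). Krt7 was -0.08 (SE 0.15), Krt8 0.01 (SE 0.12) and Krt19 -0.02 (SE 0.11). Over all cells 2 of 998 targets were called (0.200%), again without a keratin: Krt7 was -0.15 (SE 0.14), Krt8 -0.01 (SE 0.12), Krt18 0.19 (SE 0.19) and Krt19 -0.02 (SE 0.11), all with an adjusted p of 0.850 or more. The self-test on counts simulated at the depth of these areas recovered 100% of 2-fold changes in the all-cell comparison. Its spread between areas was a fixed setting, not fitted to these counts. It therefore does not give the power for these keratins or for smaller differences. Areas overlapped between genotypes for each keratin in both populations, whereas 221 of 998 targets (22.1%) did not overlap in hepatocyte-sized cells and 192 (19.2%) over all cells.

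The genes of the companion list gave 0 calls of 15 in each of the 3 genotype comparisons. Those of lowest p in cholangiocyte-like cells were Cdh1 (-0.83, edgeR adjusted p = 0.307), Itga3 (0.61, adjusted p = 0.702) and Epcam (0.58, adjusted p = 0.702). The 14 other keratins gave no call either.

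**Figure D4:**
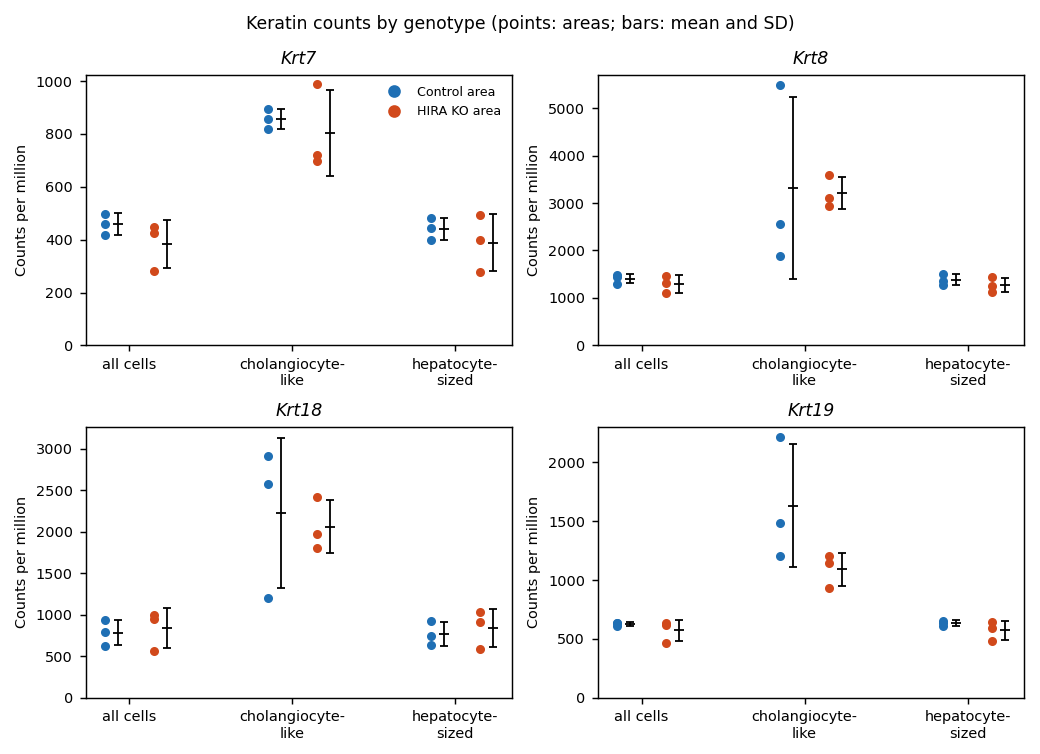
CPM of each keratin (vertical axis, 1 panel per keratin, own scale from 0) in all cells, cholangiocyte-like cells and hepatocyte-sized cells; points are tissue areas, blue for Control and red for HIRA KO, with mean and SD beside them. The groups overlap everywhere except for Krt19 in cholangiocyte-like cells, where the lowest Control area (1201.3 CPM) and the highest HIRA KO area (1200.6 CPM) nearly touch.

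Detection gave the same order for Krt19 without reaching a call. After thinning to 50 gene counts, 7.92% ± 2.81 of cholangiocyte-like cells in Control areas and 3.82% ± 1.62 in HIRA KO areas had a Krt19 count (SD, n = 3; exact permutation test, two-sided, p = 0.2). At 100 gene counts the shares were 16.9% ± 6.92 and 8.79% ± 3.03 (exact permutation p = 0.1, the smallest that 3 against 3 allows). For Krt8 the shares at 50 counts were 14.4% ± 6.96 and 14.8% ± 1.38 (exact permutation p = 1.0), for Krt18 8.94% ± 3.88 and 9.53% ± 2.94 (exact p = 0.9) and for Krt7 3.52% ± 0.29 and 4.59% ± 0.95 (exact p = 0.3). These 4 tests were not adjusted.

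Raw PanCK intensity did not pass a test between genotypes. The median PanCK intensity of cholangiocyte-like cells was 3027 ± 411 in Control and 2761 ± 609 in HIRA KO areas (SD, n = 3; exact permutation test on log2 medians, two-sided, p = 0.4). In hepatocyte-sized cells it was 3072 ± 386 and 2656 ± 621 (exact permutation p = 0.4), and over all cells 3002 ± 369 and 2567 ± 617 (exact p = 0.3). Ranked within its area, the median cholangiocyte-like cell lay at percentile 43.9, 57.1 and 59.5 in the Control areas. In the HIRA KO areas it lay at 71.3, 65.5 and 63.5, higher without overlap, a difference that was not tested. The hepatocyte-like class was also higher in HIRA KO without overlap, at 47.4, 52.2 and 51.3 against 61.4, 61.4 and 57.6. The areas of the other named classes overlapped. A rank depends on the cell mix of its area, and the part of that mix was not tested. For hepatocyte-sized cells the median percentile was 57.4 ± 1.81 (SD, n = 6). It was 57.49, 54.4 and 57.1 in the Control areas and 60.1, 57.51 and 57.6 in the HIRA KO areas. These too were higher in HIRA KO without overlap, though the nearest areas were all but equal, and the difference was not tested. In Control area 1 hepatocyte-sized cells were brighter at the median than the cholangiocyte-like cells. The share of cholangiocyte-like cells in the top of the stain went the other way between genotypes: 8.16%, 6.82% and 16.04% of them lay in the brightest 1% in the Control areas and 5.31%, 5.86% and 4.96% in the HIRA KO areas. The Control areas were higher without overlap (10.3% ± 4.98 against 5.37% ± 0.46, exact permutation p = 0.1, the smallest possible). This was not particular to the class. Stellate-like cells were also higher in Control (0.572% against 0.241%) and neutrophil-like cells lower (0.590% against 1.44%). Both separated without overlap at exact permutation p = 0.1, on 1 to 4 such cells per area.

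Whether the keratin contrast between PanCK-bright and other cells differed between genotypes was tested as an interaction, HIRA KO minus Control. For the brightest 25%, 1 of 998 targets was called over all cells (0.10%) and 0 of 998 in hepatocyte-sized cells (0%, 49 at an unadjusted p under 0.05), none of them a keratin. Within cholangiocyte-like cells, a fit added after the data were seen, 0 of 937 targets were called by edgeR (0%, 51 at an unadjusted p under 0.05) and 0 by DESeq2. Krt19 there was -0.99 (SE 0.35, unadjusted p = 0.00488, edgeR adjusted p = 0.609) and Krt18 -0.64 (SE 0.30, adjusted p = 0.842). The widest gaps between bright and other cells lay in Control areas for both genes, but the interaction did not pass. At the brightest 1%, also added later, 3 of 998 targets were called over all cells (0.301%), Krt18 among them (-1.39, SE 0.35, edgeR adjusted p = 0.0230), and 2 of 498 within cholangiocyte-like cells (0.402%), none of them a keratin. The Krt18 call over all cells kept its threshold in 1 of 6 fits that left out an area (without Control area 2, adjusted p = 8.95e-06), and without Control area 3 it was -0.68 (adjusted p = 0.983).

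No keratin passed the test between hepatocyte-sized cells next to cholangiocyte-like cells and those farther away. A cell was counted as near when at least 1 of its 20 nearest cells was cholangiocyte-like. Of 998 targets 19 were called (1.90%), none of them one of the 4 keratins. The log2 differences were -0.13 for Krt7 (SE 0.07, edgeR adjusted p = 0.625), -0.03 for Krt8 (SE 0.05, adjusted p = 0.938), 0.10 for Krt18 (SE 0.06, adjusted p = 0.600) and 0.04 for Krt19 (SE 0.07, adjusted p = 0.928). Krt18 averaged 781 ± 154 CPM with no such neighbour, 800 ± 284 CPM with 1 to 2 and 934 ± 283 CPM with 3 to 20 (SD, n = 6). Spp1 and Clu were the 2 of 15 listed genes called (0.85, edgeR adjusted p = 6.28e-09, and 0.56, edgeR adjusted p = 4.19e-08). Spp1 rose from 308 ± 34.3 to 471 ± 54.2 and 780 ± 252 CPM over the same steps.

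Within cells, the nuclear share of Krt19 transcripts was below that of all genes in each area, a difference that did not pass after adjustment. The nuclear share of Krt19 was 40.9%, 47.7% and 34.8% in the Control areas, where all genes together had 52.4%, 52.9% and 47.4%. In the HIRA KO areas it was 43.2%, 46.9% and 35.2%, against 46.9%, 47.5% and 42.7% for all genes. Krt19 lay below all genes in 6 of 6 areas, by little in HIRA KO area 2. The mean difference was -6.88 ± 4.65 percentage points (SD, n = 6; exact sign-flip permutation test, two-sided, p = 0.03125, the smallest that 6 areas allow; 0.125 after Benjamini-Hochberg adjustment over the 4 keratins). Of 757 targets above the highest negative probe, 163 (21.5%) were below all genes in every area, and Krt19 had the share ranked 80 from the lowest.

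The other keratins lay close to the panel. The difference was 1.43 points for Krt7 (exact sign-flip p = 0.219), -0.71 for Krt8 (exact p = 0.375) and 1.77 for Krt18 (exact p = 0.125), unadjusted. Negative probes, which Krt19 exceeded 1.40-fold in all, had a nuclear share of 28.8% ± 2.15, and their part in the Krt19 share was not tested. Krt7, at the count level of the negative probes, had a nuclear share of 49.7% ± 3.25. In hepatocyte-sized cells the Krt19 count lay below the highest negative probe. The Krt19 difference was -8.83 points in hepatocyte-sized cells (exact sign-flip p = 0.03125) and -3.32 points in cholangiocyte-like cells, where it was below in 3 of 6 areas (exact p = 0.375). Between genotypes it was -9.80 points in Control and -3.95 points in HIRA KO areas (exact permutation p = 0.2).

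**Figure D5:**
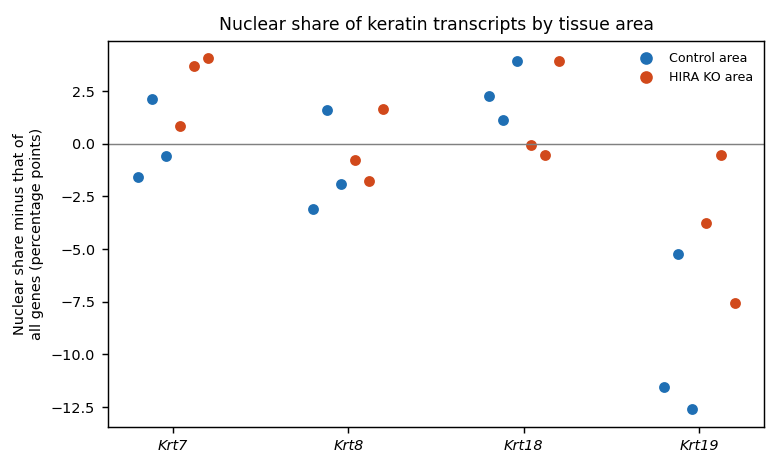
Nuclear share of the transcripts of each keratin minus that of all gene transcripts in the same tissue area (vertical axis, percentage points); points are areas, blue for Control and red for HIRA KO, and the line at 0 is the share of all genes. All 6 Krt19 points lie below 0 (mean -6.88 points), and the points of Krt7, Krt8 and Krt18 lie on both sides of it.

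Transcripts outside any segmented cell were 7.21% ± 1.54 of Krt7, 7.40% ± 1.32 of Krt8, 6.36% ± 1.49 of Krt18 and 8.49% ± 1.70 of Krt19 (SD, n = 6), against 6.99% ± 1.32 of all gene transcripts and 10.2% ± 1.75 of negative probes. The 4 keratins therefore overlapped the panel in this measure.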

How the data were processed

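CosMx counts of 1000 targets and 10 negative probes per segmented cell were deposited by the authors without normalization, together with the PanCK stain as mean and maximum fluorescence intensity per cell, cell area (a signal in square pixels, as deposited) and the compartment of each transcript. Sections of 5 µm came from formalin-fixed, paraffin-embedded median lobe. Versions of the decoding and segmentation software were not given in the sources used here. The authors' class names were not used here, and no comparison of theirs was used. As in the study, cells with fewer than 20 gene counts or an area over 5 times the geometric mean were left out.

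Cells were clustered on Pearson residuals without the 4 keratins (30 principal components, 20 neighbours, Leiden resolution 1.6; leidenalg 0.10.2, igraph 0.11.9, scikit-learn 1.9.0, Python 3.11.15, numpy 2.4.6, pandas 2.3.3). A cluster was named from listed markers, at least 3 of them raised. Counts were summed per tissue area and tested with edgeR 4.0.16 (TMM, filterByExpr, quasi-likelihood; R 4.3.3) at an adjusted p of 0.05, with DESeq2 1.42.0 as an alternative. Tests on simulated counts with 200 of 1000 genes changed 2-fold recovered 100% of them with 8 false calls for genotype, 9 for PanCK and 12 for the interaction, each over all cells. Single values were tested by exact permutation over areas. The self-test used a fixed spread between areas, changed only targets above a set mean count, and was not run for the smaller populations.

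The members, the gene lists and the tests were chosen with earlier results of these data known. Named were the 4 keratins, the other keratins as a list, the 3 genes of lowest p of an epithelial list of 22 genes (15 on the panel), the 5 targets most like each keratin (1 of them is not reported here), and the 5 of largest fold in the bright direction in each PanCK test. Alternatives were library size scaling, no filter on low counts, at least 50 counts per cell, other PanCK classes, maximum stain, ranks within a field of view, a gate on biliary markers (at least 3 counts of at least 2 of them), another size limit, the slide row as a block and leaving out each area. The contrast of the brightest 1% (of all cells of an area, but ranked within the class for hepatocyte-sized cells), the interaction within cholangiocyte-like cells and clustering with the keratins were added after seeing the data.

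Depth limits these values: a cholangiocyte-like cell had a median of 98 counts, and that class held 278 counts of Krt7, 1040 of Krt8, 734 of Krt18 and 418 of Krt19 in all. Errors cover the spread of areas and not segmentation error. Coordinates were read from GENCODE vM21.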

Additional observations from a re-analysis of the deposited data

Results flagged for a closer look

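Over all cells, the Krt18 contrast between the brightest 1% by PanCK and the other cells passed a test of the difference between genotypes, but not stably: the HIRA KO minus Control interaction was -1.39 on the log2 scale (SE 0.35, edgeR adjusted p = 0.0230, 3 of 998 targets called). Krt18 in bright against other cells was 3492 against 911 CPM, 460 against 627 CPM and 6217 against 725 CPM in the Control areas, and 1573 against 995 CPM, 1510 against 939 CPM and 1080 against 554 CPM in the HIRA KO areas. The Control areas spread from a fall in area 2, on 3 Krt18 counts, to the widest rise in area 3, and each HIRA KO area rose. The ratios of bright to other cells in the Control areas (3.83, 0.733 and 8.57) enclosed those of the HIRA KO areas (1.58, 1.61 and 1.95). The call was lost in 5 of 6 fits that left out an area, and without Control area 3 the interaction was -0.68 (edgeR adjusted p = 0.983). The brightest 1% was 48.8%, 13.04% and 66.2% cholangiocyte-like in the Control areas and 39.2%, 47.1% and 16% in the HIRA KO areas, and the part of this mix in the difference was not tested. Within cholangiocyte-like cells the same interaction was -0.91 (SE 0.37, edgeR adjusted p = 0.772), and with DESeq2 over all cells it was -1.13 (adjusted p = 1.0).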

How the results depend on the processing

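Of the values recomputed under another setting, 786 kept their direction and their side of the threshold; the others follow, and the cause was not tested for any of them. No genotype setting called a keratin. Scaling by library size moved the median HIRA KO to Control difference of all targets from -0.01 to -0.12 over all cells and from -0.00 to -0.13 in hepatocyte-sized cells, and keratin differences are read against that shift.

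The number of keratins called by PanCK over all cells (1 in the text) was 2 with the brightest 10% or the brighter 50%, 3 with the maximum stain, ranks within a field of view or the brightest 1%, and 1 to 2 without 1 area. In cholangiocyte-like cells it was 1 with DESeq2, 0 with the brighter 50% and 1 to 2 without 1 area (2 in the text). Over all 17 alternatives there, Krt8 passed in 2, and the number of keratins called ran from 0 to 3. For the cells of that class in the brightest 1% of all cells it was 1 with DESeq2 and 1 to 3 without 1 area. The interaction with genotype over all cells (0 keratins) gave 1 at the brightest 1%, which became 0 with DESeq2 and 0 to 1 without 1 area.

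Uncalled genotype differences changed sign as follows. In cholangiocyte-like cells Krt7 was 0.15 with at least 50 counts per cell, and in hepatocyte-sized cells Krt8 was -0.12 by library size and -0.037 with the marker gate. Without 1 area, over all cells, Krt8 ran from -0.10 to 0.051 and Krt19 from -0.082 to 0.068. In cholangiocyte-like cells Krt7 ran from -0.21 to 0.10, Krt8 from -0.30 to 0.55 and Krt18 from -0.38 to 0.081, and in hepatocyte-sized cells Krt7 ran from -0.24 to 0.082, Krt8 from -0.075 to 0.064 and Krt19 from -0.073 to 0.044. With the slide row as a block (replicate block; a pairing by position and not by the labels) Krt8 in cholangiocyte-like cells was 0.11, 0 keratins were called in each population, and all targets called rose from 2 to 17 over all cells, 0 to 4 in cholangiocyte-like and 1 to 19 in hepatocyte-sized cells. DESeq2 called 10, 0 and 13.

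Uncalled PanCK differences of hepatocyte-sized cells changed sign with the maximum stain (Krt7 -0.0089, Krt8 0.046, Krt18 -0.014, Krt19 0.17), ranks within a field of view (Krt8 0.035, Krt19 0.055), the brightest 1% (Krt8 0.22, Krt18 -1.02, Krt19 0.089), library size (Krt18 -0.00025), the marker gate (Krt18 -0.014), DESeq2 (Krt19 0.0035), at least 50 counts (Krt19 0.011) and the brighter 50% (Krt19 0.036). Without 1 area Krt18 ran from -0.049 to 0.068, Krt19 from -0.088 to 0.073, and Krt19 in the brightest 1% from -0.15 to 0.30. Near cholangiocyte-like cells Krt7 was 0.075 with the marker gate and Krt8 0.054 with at least 3 such neighbours.

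The uncalled interaction over all cells changed sign with the maximum stain (Krt7 -0.011, Krt18 -0.22, Krt19 0.012), the brightest 10% (Krt18 -0.19) and the brightest 1% (Krt8 -0.33, Krt18 -1.39). In hepatocyte-sized cells it did so with the brightest 10% (Krt7 0.066, Krt19 -0.0022), a size limit of 1.5 times the geometric mean (Krt7 0.041, Krt19 -0.12), the maximum stain (Krt18 -0.13), library size (Krt19 -0.020), at least 50 counts (Krt19 -0.016) and ranks within a field of view (Krt19 -0.18). Without 1 area Krt19 ran from -0.30 to 0.24 over all cells, and in hepatocyte-sized cells Krt7 from -0.18 to 0.15 and Krt19 from -0.17 to 0.27. At the brightest 1% over all cells Krt7 ran from -0.17 to 1.31 and Krt8 from -0.86 to 0.25. In cholangiocyte-like cells Krt8 ran from -0.084 to 0.24. For those in the brightest 1% of all cells Krt7 ran from -0.39 to 0.95, Krt8 from -0.41 to 0.20 and Krt19 from -0.71 to 0.10.

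With the maximum in place of the mean intensity, the HIRA KO minus Control difference in the PanCK stain of hepatocyte-sized cells was 0.046 (log2). The nuclear share of Krt8 was 0.40 points above all genes in hepatocyte-sized cells, that of Krt19 was -3.32 points in cholangiocyte-like cells, and without 1 area Krt19 ran from -8.15 to -5.73 points, with an exact p of 0.0625, the smallest that 5 areas allow. The HIRA KO minus Control difference in detection was -0.58 points for Krt7 and -1.60 for Krt18 at 100 counts per cell, -0.15 for Krt7, -0.52 for Krt8 and -0.15 for Krt18 with the marker gate, and without 1 area -2.30 to 4.31 for Krt8 and -1.61 to 2.08 for Krt18.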
